A study of Mus musculus with 6 samples.

Results

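The 48 genes described here encode the contractile filaments of skeletal muscle and the machinery that couples the fibre's excitation to contraction. They were followed in 6 single-cell RNA libraries from the tibialis anterior, the muscle at the front of the lower leg, of wild-type mice. The genes were taken by symbol, 48 of the 32285 in each count matrix, and were placed in groups by known role: 5 developmental isoforms, 6 slow-fibre and 11 fast-fibre isoforms, 17 genes of actin, tropomyosin, giant filament, Z-disc and M-band proteins, 7 of calcium handling and 2 of energy supply. The day 0 libraries came from uninjured muscle, and the day 1 and day 3 libraries from muscle injured with cardiotoxin, a snake-venom toxin that destroys fibres and spares most stem cells. On each day cells were taken at ZT4 and at ZT16, where ZT is the time since lights-on, so that each of the 6 groups is 1 library. No strain, sex, age, number of pooled mice or light schedule on the day is given in the sources used here. Mononucleated cells of both hindlimbs had been sorted against propidium iodide, which marks dead cells, and whole fibres, which hold many nuclei, are not captured in that way.

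Levels are given as CPM: the unique molecular identifiers (UMIs, 1 per captured RNA molecule) of a gene, summed over a class of cells in a library, per 1000000 UMIs of that class. The assay counts the 3′ end of each molecule, so a level is not scaled by gene length. With 1 library per group there is no replicate, so no test and no p-value is given. The 95% intervals are exact and cover counting error alone, and a difference between groups cannot be told apart from a difference between these libraries. Where both libraries of a day are said to lie above or below all others, the share of all genes that did so is not given.

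The values were read in 2 classes of barcodes. Myogenic cells, the muscle stem cells and their dividing and differentiating progeny, had at least 3 UMIs of Pax7, Myf5, Myod1, Cdh15 and Myog together and at most 1 of the leukocyte gene Ptprc. The uninjured muscle gave 1004 of them at ZT4 and 1255 at ZT16. After injury there were 23 and 46 (day 1) and 676 and 478 (day 3), out of 11758, 12397, 10984, 11233, 9488 and 8172 barcodes kept. Fibre-rich barcodes, in which Acta1, Ckm, Mylpf, Tnnt3 and Tnnc2 made up at least 10% of UMIs, numbered 1563 and 2237, 314 and 478, and 231 and 244. The 5 genes of that rule are given in these barcodes as a description only. Between 1 and 69 barcodes of a library met both rules, with 69 of them in the day 0 ZT16 library and 11 in the day 0 ZT4 library. Several results in myogenic cells that depend on these are given with and without them. On day 1, 2 and 7 of the 23 and 46 myogenic cells met both rules, and day 1 levels include them unless stated. Without them the summed level of the 11 fast isoforms on day 1 was 28.3 and 843 CPM instead of 3299 and 4551.

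Of markers outside its rule, the myogenic class held Chodl, Vcam1 and Calcr, genes of muscle stem cells, at 841 and 911, 404 and 343, and 59.8 and 51.2 CPM on day 0, and at 7.33 and 11.3, 95.1 and 103, and 0.957 and 1.30 on day 3. It also held Dcn, a stromal gene, at 1495 and 1225 CPM on day 0 and at 13.1 and 17.4 on day 3. As a description of the rule's own genes, Pax7, the transcription factor of muscle stem cells, stood at 479 and 375 CPM on day 0 and at 43.0 and 51.5 on day 3, and Myog, the factor of terminal differentiation, at 847 and 825 CPM on day 3. Fibre-rich barcodes held a median of 3871 and 3861 UMIs on day 0 and of 1019 to 1215 after injury, and 0.121% to 0.213% mitochondrial UMIs in the median against 2.29% to 4.32% in myogenic cells. On day 1 they also held immune transcripts, with S100a8, a neutrophil gene, at 615 and 161 CPM against 0.269 and 0 on day 0, and Tyrobp at 231 and 96.7 CPM against 6.46 and 4.37. Whether such a barcode is a fibre fragment, a myonucleus or debris in a droplet was not tested. Close to the thresholds, 75, 113, 1, 4, 11 and 4 myogenic cells had exactly 3 UMIs of the rule's genes, and 66, 163, 7, 11, 21 and 14 other barcodes had 2. Of fibre-rich barcodes 86, 168, 28, 45, 15 and 15 had 10% to 12% of their UMIs in the rule's genes, and 101, 145, 12, 24, 12 and 8 other barcodes had 8% to 10%.

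A sarcomere is built from thick filaments of myosin and thin filaments of actin, tropomyosin and troponin, with titin and nebulin as molecular rulers, Z-discs that anchor the thin filaments and M-bands that link the thick ones. An action potential opens the voltage sensor Cacna1s, which gates the calcium release channel Ryr1, and the released calcium binds troponin C and is pumped back by the SERCA pumps Atp2a1 and Atp2a2. Most of these proteins come in isoforms. Regenerating fibres first make embryonic and cardiac-type isoforms, and adult tibialis anterior is mostly fast.

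Control of these genes by MyoD-family factors and their partners acts in part through short motifs near the start site, so the stretch of 250 bases before the RefSeq start (GRCm38.p6) is shown for 5 genes on which the results turn: an embryonic myosin, a troponin made in both heart and embryonic muscle, the adult skeletal actin, the muscle intermediate filament and a calcium pump regulator. Each is read 5′ to 3′ on the strand of its gene, at chr11:67078050-67078299 (plus strand) for Myh3, chr1:135836084-135836333 (plus) for Tnnt2, chr8:123894776-123895025 (minus) for Acta1, chr1:75360042-75360291 (plus) for Des and chr10:70204414-70204663 (plus) for Mrln. Capitals mark CAGCTG and CACCTG, E-box forms bound by MyoD-family factors and their relatives, CATTCC, the core of the MCAT element bound by TEAD factors, each read on either strand, and the CArG box of serum response factor.
Myh3: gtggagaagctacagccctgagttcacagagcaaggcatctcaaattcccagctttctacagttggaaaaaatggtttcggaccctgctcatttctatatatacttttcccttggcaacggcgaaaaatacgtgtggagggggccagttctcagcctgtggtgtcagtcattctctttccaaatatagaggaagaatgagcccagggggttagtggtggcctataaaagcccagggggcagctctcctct
Tnnt2: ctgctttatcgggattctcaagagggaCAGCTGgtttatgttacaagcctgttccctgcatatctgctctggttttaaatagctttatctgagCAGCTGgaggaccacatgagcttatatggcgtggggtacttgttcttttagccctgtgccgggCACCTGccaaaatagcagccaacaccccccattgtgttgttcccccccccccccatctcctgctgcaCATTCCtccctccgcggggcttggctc
Acta1: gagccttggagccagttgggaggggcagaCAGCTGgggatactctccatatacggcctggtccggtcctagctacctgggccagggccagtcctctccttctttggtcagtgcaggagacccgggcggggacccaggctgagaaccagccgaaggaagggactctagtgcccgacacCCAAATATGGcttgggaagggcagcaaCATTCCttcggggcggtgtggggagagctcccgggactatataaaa
Des: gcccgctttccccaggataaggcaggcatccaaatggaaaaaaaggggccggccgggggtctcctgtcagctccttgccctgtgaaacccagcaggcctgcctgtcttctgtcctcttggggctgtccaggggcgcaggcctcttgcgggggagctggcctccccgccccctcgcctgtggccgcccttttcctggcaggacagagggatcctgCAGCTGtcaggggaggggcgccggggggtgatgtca
Mrln: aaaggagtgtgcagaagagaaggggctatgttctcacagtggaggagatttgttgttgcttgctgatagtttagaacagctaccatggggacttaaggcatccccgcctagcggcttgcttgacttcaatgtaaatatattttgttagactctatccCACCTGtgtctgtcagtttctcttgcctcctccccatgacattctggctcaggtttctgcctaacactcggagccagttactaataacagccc
Of these 5 windows, that of Tnnt2 held CAGCTG at 2 places, and also CACCTG and CATTCC. That of Acta1 held the CArG box besides CAGCTG and CATTCC, and that of Myh3 held none of the motifs in capitals, though it held TATAAA. Of the 48 genes 40 matched an entry with 250 bases. CAGCTG lay in 16 of these 40 (40%) and in 2545 of all 20595 promoters of that length (12.36%). CACCTG lay in 11 (27.5%, against 16.8% of all), CATTCC in 14 (35%, against 12.12%), TATAAA in 9 (22.5%, against 12.19%) and the CArG box in 6 (15%, against 1.335%). Some RefSeq starts lie far from the gene start used for the coordinates given below. A match describes letters in a window and not a site.

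**Figure D1:**
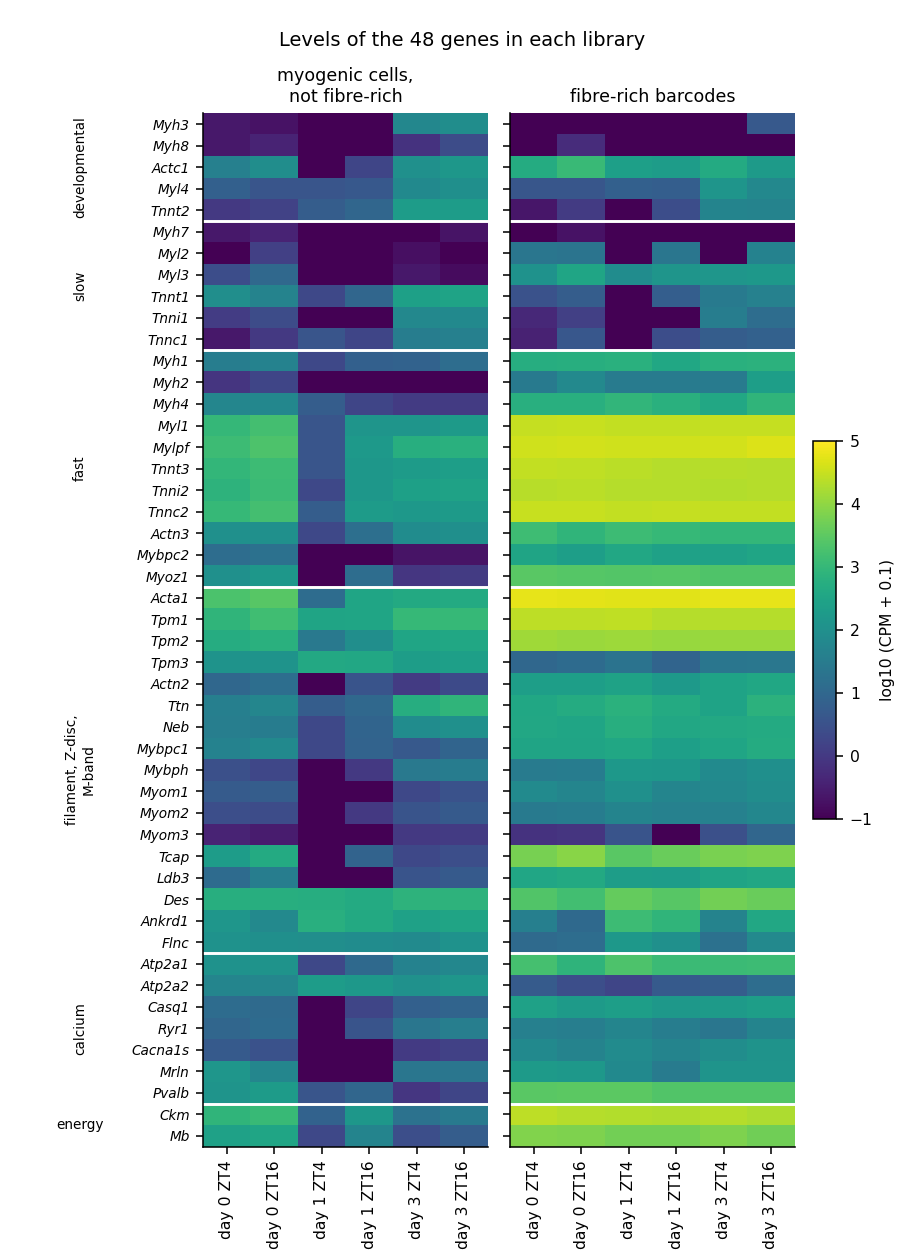
Level of each of the 48 genes as log10 (CPM + 0.1), by library, in myogenic cells that are not fibre-rich (left) and in fibre-rich barcodes (right). On the left the developmental isoforms Myh3, Myl4 and Tnnt2 are highest in both day 3 libraries and Tcap, Pvalb, Ckm and Mb are highest on day 0, while on the right Myl1, Mylpf, Tnnt3, Tnni2 and Tnnc2 are near the top of the scale in all 6 libraries and the fast heavy chains and Mybpc2 lie well below them.

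Messages of the adult fibre were found in every class of cell on day 0. In endothelial barcodes the 48 genes made up 1.81% and 1.89% of UMIs on day 0, and in Ptprc-bearing barcodes 0.881% and 0.924%. In myogenic cells they made up 1.63% and 3.18%, or 1.17% and 1.67% without the barcodes that met both rules. Acta1, skeletal alpha actin, stood at 1960 and 2836 CPM in myogenic cells without those barcodes and at 3281 and 3298 CPM in the highest of the other 3 classes, so its myogenic level on day 0 did not exceed that of cells that do not make sarcomeres. On day 3 the 48 genes made up 0.0861% and 0.0809% of UMIs in Ptprc-bearing barcodes and 0.0881% and 0.0873% in endothelial barcodes, against 0.628% and 0.722% in myogenic cells.

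Each gene was therefore set against the highest of Ptprc-bearing, endothelial and stromal barcodes of its own library, and counted where the myogenic level was at least 3 times as high on at least 10 UMIs. On day 0 that held for 4 of 48 genes at ZT4 (Tnnt1, Des, Ankrd1 and Mrln) and for 5 at ZT16 (the same 4 and Mybpc1). On day 3 it held for 28 and 30 of 48, among them all 5 developmental isoforms in both libraries, Tnnt1, Tnni1 and Tnnc1 of the slow group, 7 of 11 fast isoforms and 10 and 11 of the 17 filament, Z-disc and M-band genes. It held for neither of the energy genes, Ckm and Mb. The share of all genes that met this rule is not given, so these counts describe the members alone. The 4 genes of day 0 are the slow troponin T Tnnt1, the intermediate filament desmin (Des), the stress-responsive titin-binding repeat protein Ankrd1 and myoregulin (Mrln), a micropeptide that inhibits SERCA. Mural barcodes were not among the classes compared. Des was also high in mural cells, which are contractile and make desmin, at 286 to 456 CPM over the 6 libraries. Its myogenic level was under 3 times the mural level in each, at 564 and 567 CPM against 444 and 379 on day 0. Mybpc1 too, at 70.7 CPM on day 0 at ZT16, was under 3 times its mural level of 28.9. So was Tpm1, which was counted on day 3 at ZT16 alone, at 1039 CPM against 984 in mural barcodes.

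**Figure D2:**
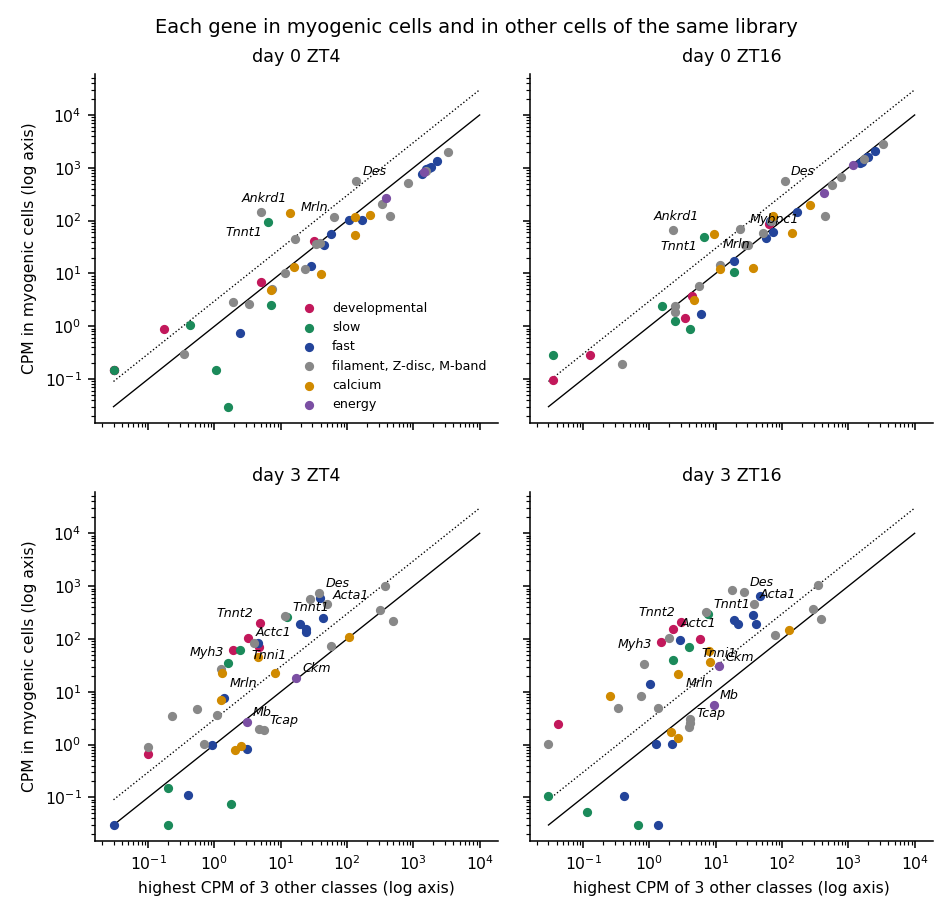
CPM of each gene in myogenic cells that are not fibre-rich (vertical) against the highest CPM among Ptprc-bearing, endothelial and stromal barcodes of that library (horizontal), both on log axes, with values at or under 0.03 drawn at 0.03. The solid line marks equal levels and the dotted line 3-fold. Most day 0 points lie near or below the line of equal levels. Tnnt1, Des, Ankrd1 and Mrln and, at ZT16, Mybpc1 lie above the dotted line, as do a few genes with under 10 UMIs, whereas the day 3 points of the 5 developmental genes lie above the dotted line.

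Myogenic cells of day 3 had higher levels of developmental isoforms, slow troponins and titin than those of day 0, and lower levels of fast isoforms and of the energy genes. Genes with at least 30 UMIs in both libraries together were compared, 44 of the 48 at ZT4 and 45 at ZT16. At ZT4, 11 were at least 2-fold higher on day 3, where 16.9% of all 12492 genes compared were, and 24 were at least 2-fold lower, where 30% of all genes were. At ZT16, 14 were higher (16% of all genes) and 26 lower (25.3% of all genes). The median log2 ratio was -1.66 and -1.49 over the members and -0.28 and -0.12 over all genes. Without the barcodes that met both rules, 12 of 42 were higher (17.1% of all genes) and 21 lower (30%) at ZT4, and 14 of 44 higher (16%) and 20 lower (25.4%) at ZT16.

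All of the developmental isoforms that could be compared at ZT4, 4 of 5, were at least 2-fold higher on day 3, against 16.9% of all genes. At ZT16 all 5 were compared and 4 were higher, against 16% of all genes. Myh3, the embryonic myosin heavy chain (chromosome 11, 67078300 to 67102291, GRCm38), had 1 UMI in each day 0 library (0.146 and 0.0913 CPM), none in either day 1 library, and 1660 and 1641 UMIs on day 3 (61.1 and 88.6 CPM). The log2 ratio of day 3 over day 0 was 8.12 (95% interval 6.23 to 14.01) at ZT4 and 9.34 (7.44 to 15.23) at ZT16. Both day 3 libraries thus stood far above all 4 others.

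Tnnt2, cardiac troponin T, which is also the troponin T of embryonic skeletal muscle (chromosome 1, 135836354 to 135852260), stood at 0.877, 1.37, 5.53, 10.1, 203 and 208 CPM in the order day 0, 1 and 3 with ZT4 before ZT16. Its log2 ratios were 7.74 (6.73 to 9.30) and 7.20 (6.53 to 8.09). Myl4, the atrial and embryonic essential light chain, stood at 6.87, 3.65, 5.53, 4.20, 70.7 and 97.6 CPM, with log2 ratios of 3.35 and 4.72. For both genes the day 3 libraries lay above all others.

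Actc1, cardiac alpha actin, an early actin of new myotubes, did not follow this order. It stood at 50.2, 198, 3.69, 7.56, 104 and 153 CPM in the same order, so that its log2 ratio was 1.06 (0.90 to 1.22) at ZT4 and -0.37 (-0.45 to -0.29) at ZT16. Without the barcodes that met both rules its day 0 levels were 41.7 and 87.7 CPM and the log2 ratios 1.32 and 0.80. On day 0 its UMIs were concentrated, with 73.2% of the 280 at ZT4 and 45.8% of the 908 at ZT16 in 10 cells each. Myh8, the perinatal heavy chain, was scarce throughout, with 18 and 45 UMIs on day 3 (0.663 and 2.43 CPM) and 1 and 3 on day 0.

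The slow isoforms split by protein. The slow troponins were higher on day 3, and the slow myosins were close to absent. Tnnt1 stood at 93.0, 46.8, 1.84, 9.25, 258 and 297 CPM, and its log2 ratios were 1.47 (1.36 to 1.59) and 2.66 (2.54 to 2.80). Tnni1, slow troponin I, stood at 1.02 and 2.37 CPM on day 0, had no UMI on day 1, and stood at 62.8 and 69.1 on day 3, with log2 ratios of 5.84 and 4.84. Tnnc1, the troponin C of slow and cardiac muscle, stood at 0.146, 0.822, 3.69, 1.68, 34.7 and 40.7 CPM, with log2 ratios of 7.31 and 5.55. All 3 slow troponins were thus highest in both day 3 libraries.

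Myh7, the slow heavy chain, had at most 3 UMIs in any library. Its light chain partner Myl2 stood at 20.6, 1.19, 0, 4.20, 0.0736 and 0 CPM, and all 141 of its UMIs in the day 0 ZT4 library lay in barcodes that also met the fibre-rich rule. Myl3, the slow essential light chain, stood at 17.8, 24.8, 0, 17.7, 0.147 and 0.0540 CPM, and at 2.53 and 10.6 CPM on day 0 without those barcodes.

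None of the fast isoforms was at least 2-fold higher on day 3, while 9 of 10 compared at ZT4 and 10 of 11 at ZT16 were at least 2-fold lower, against 30% and 25.3% of all genes. Mylpf, the fast regulatory light chain, stood at 1919, 4152, 831, 1132, 594 and 646 CPM. Its log2 ratios were -1.69 and -2.68, and -1.16 and -1.69 without the barcodes that met both rules. Tnni2, fast troponin I, stood at 1102, 2324, 452, 755, 252 and 283 CPM and Tnnt3, fast troponin T, at 1359, 2505, 636, 735, 195 and 231. Myl1 stood at 1431, 3239, 595, 818, 139 and 195 CPM and Tnnc2, fast troponin C, at 1495, 3025, 623, 959, 156 and 195. Without the barcodes that met both rules, day 0 levels were 757 and 1216 for Tnni2 and 935 and 1284 for Tnnt3. They were 972 and 1617 for Myl1 and 1029 and 1606 for Tnnc2. In Mylpf, Tnni2, Tnnt3, Myl1 and Tnnc2 the day 0 levels were the highest. In each the day 0 level in myogenic cells was shared by cells of other classes, while the day 3 level was at least 3 times theirs.

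Actn3, the alpha actinin of fast fibres, was the exception among the fast genes, at 127, 142, 38.7, 40.3, 83.3 and 97.5 CPM, with log2 ratios of -0.61 and -0.54. At the other end Myh4, Mybpc2 and Myoz1 were nearly gone on day 3, at 0.994 and 1.03, 0.110 and 0.108, and 0.810 and 1.30 CPM, against 71.2 and 89.1, 18.1 and 27.5, and 141 and 276 on day 0. Myh1 and Myh2 stood at 43.6 and 67.6 and at 3.95 and 3.93 CPM on day 0, and at 7.47 and 14.2 CPM and no UMI on day 3. None of the 3 genes Myh2, Mybpc2 and Myoz1 was counted 3-fold above other cells in any library.

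Among the filament, Z-disc and M-band genes 16 were compared. At ZT4, 2 were at least 2-fold higher and 6 lower, where 16.9% and 30% of all genes were, and the group thus lay close to those shares. At ZT16, 5 were higher and 8 lower, where 16% and 25.3% of all genes were. Ttn, which encodes the giant spring titin, stood at 45.2, 81.5, 9.22, 21.0, 562 and 833 CPM, with log2 ratios of 3.63 (3.47 to 3.80) and 3.35. Both day 3 libraries lay above the other 4. Mybph, a myosin-binding protein, stood at 3.36, 6.21, 18.4, 15.1, 26.5 and 33.8 CPM, with log2 ratios of 2.95 and 2.43, and of 3.19 and 4.17 without the barcodes that met both rules. Without those barcodes its day 1 levels were 0 and 0.870 CPM. Neb, the thin filament ruler nebulin, stood at 43.3, 48.8, 11.1, 18.5, 84.9 and 103 CPM, with log2 ratios of 0.97 and 1.08, or 1.24 and 1.61 without those barcodes.

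Acta1 stood at 2793, 6087, 1351, 2243, 455 and 483 CPM, with log2 ratios of -2.62 and -3.66. Without the barcodes that met both rules it stood at 1960, 2836, 13.2, 339, 452 and 464 CPM, so the difference was smaller. Tpm1, a tropomyosin made in fast muscle and in many other cells, stood at 1317, 2745, 1005, 900.2, 1026 and 1043 CPM. Its log2 ratio at ZT4 was -0.36, and 0.26 without the barcodes that met both rules, so its sign turned on 11 barcodes and a single one on day 3. Des varied little, at 587, 616, 614, 614, 746 and 771 CPM. Ankrd1 stood at 145, 64.4, 617, 511, 273 and 326 CPM, highest on day 1 and lowest at ZT16 on day 0, with log2 ratios of day 3 over day 0 of 0.92 and 2.34. Tcap, a titin cap of the mature Z-disc, stood at 302, 845, 27.6, 113, 2.02 and 2.86 CPM, with log2 ratios of -7.21 and -8.19. Without the barcodes that met both rules its day 0 levels were 207 and 462 CPM and its day 3 levels 1.91 and 2.59. It was higher in the highest other class than in myogenic cells on day 3 too.

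Of the 7 calcium genes, 2 were at least 2-fold higher and 5 lower at both times. Of all genes 16.9% were higher and 30% lower at ZT4, and 16% and 25.3% at ZT16. Ryr1 stood at 11.3, 14.2, 0, 4.20, 22.8 and 35.8 CPM and Atp2a2, the slow and housekeeping calcium pump, at 53.5, 54.2, 197, 155, 111 and 145. Their log2 ratios were 1.01 and 1.33, and 1.05 and 1.42. On day 3 Ryr1 was at 2.75 and 4.38 times its level in the highest class compared, and Atp2a2 at only 1.03 and 1.15 times. Mural barcodes, which were not among the classes compared, held Atp2a2 at 314 and 339 CPM on day 3, above its myogenic level. Atp2a1, the fast pump, stood at 141, 156, 44.2, 47.9, 45.4 and 60.3 CPM and Casq1, the calcium store of the fast reticulum, at 18.3, 27.8, 5.53, 8.41, 6.88 and 8.53. Both had lower levels on day 3 than on day 0, yet both were at least 3 times as high as in other classes on day 3 and not on day 0.

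Mrln stood at 143, 61.8, 1.84, 0.841, 22.5 and 22.1 CPM, with log2 ratios of -2.67 (-2.82 to -2.52) and -1.49. At ZT16 the log2 ratio was -0.68 when cells were thinned to 1000 UMIs and -0.53 without cycling cells, so the 2-fold difference at that time did not hold under either. Unlike the other genes that were lower on day 3, it was at least 3-fold above other cells at all 4 of these collections. Pvalb, the calcium buffer of fast fibres, stood at 188, 338, 36.9, 59.7, 0.773 and 2.27 CPM. Of the energy genes Ckm, the muscle creatine kinase, stood at 1248, 2301, 610, 623, 19 and 36.0 CPM and Mb, myoglobin, at 362, 651, 135, 218, 3.06 and 7.45. Their log2 ratios were -6.04 and -6.00, and -6.88 and -6.44. Without the barcodes that met both rules Ckm stood at 847, 1106, 7.55, 147, 18.1 and 30.1 CPM and Mb at 270, 339, 1.89, 50.5, 2.65 and 5.72. The myogenic cells of day 1 were too few (23 and 46) for a ratio, and 2 and 7 of them also met the fibre-rich rule.

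**Figure D3:**
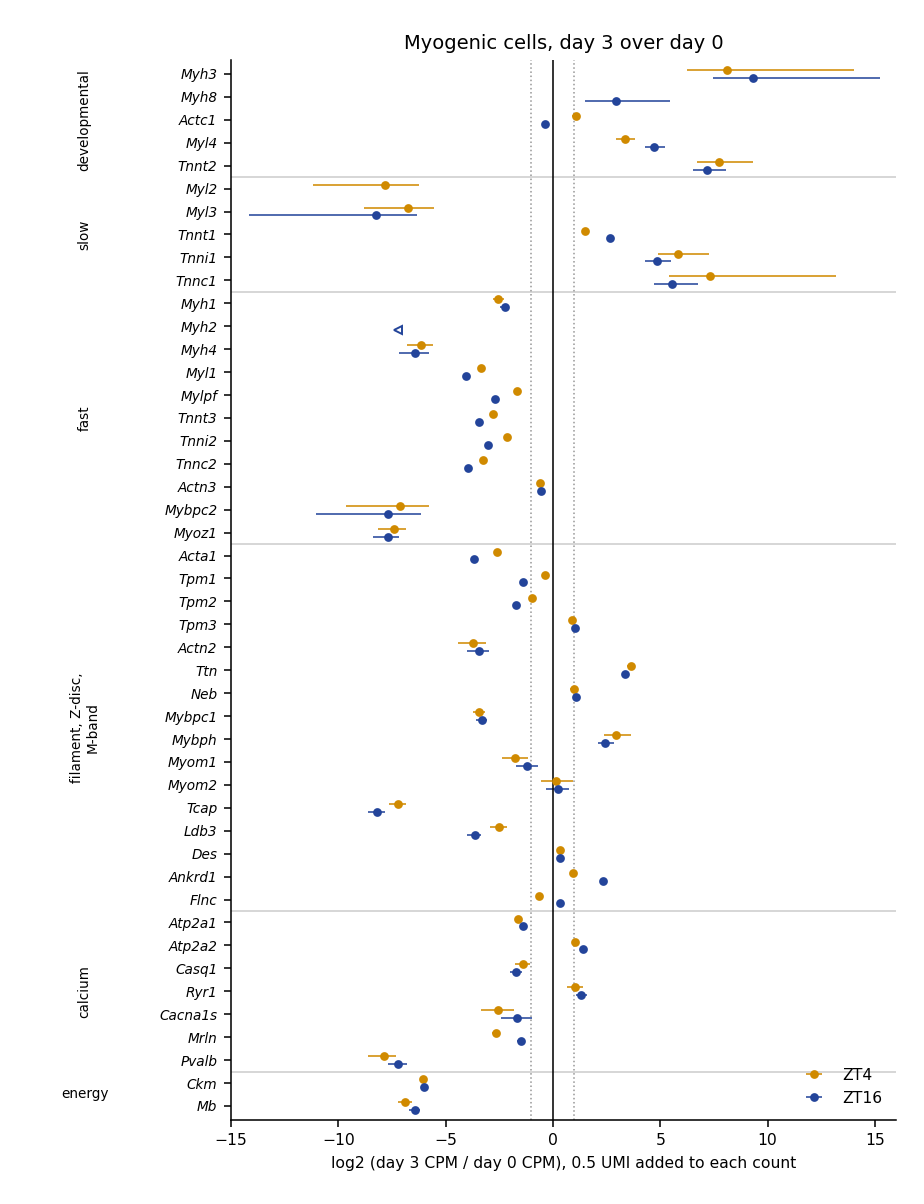
Log2 of day 3 CPM over day 0 CPM in myogenic cells for each gene with at least 30 UMIs in both libraries together, at ZT4 and ZT16, with 95% counting intervals (often narrower than the point). Dotted lines mark 2-fold, and an open triangle a gene with no UMI on day 3, drawn without an interval. The developmental isoforms, the slow troponins and Ttn lie to the right, and the fast isoforms and energy genes to the left.

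The share of each isoform within its family also differed between the days. On day 0 Myh4, Tnnt3 and Myl1 were no higher in myogenic cells than in the highest other class (the ratio to it was 1.00 and 0.84 for Myh4, 0.59 and 0.81 for Tnnt3 and 0.56 and 0.86 for Myl1), so the day 0 shares describe messages found in every class. The heavy chain genes Myh3, Myh2, Myh1, Myh4 and Myh8 lie in a row on chromosome 11 and share much of their sequence, so reads can be assigned to the wrong one, and these shares are uncertain to that extent. Among UMIs of the 6 heavy chains in myogenic cells, Myh3 made up 0.123% and 0.0566% on day 0, and 87.0% (85.4% to 88.5%) and 83.3% (81.6% to 84.9%) on day 3. Myh4, the fastest adult chain, made up 59.8% and 55.3% on day 0 and 1.42% and 0.964% on day 3. Myh1 made up 36.6% and 41.9%, then 10.6% and 13.4%.

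In the other families the developmental form was a minority on day 3. Actc1 made up 18.7% and 24.1% of the UMIs of both sarcomeric actins on day 3, and 1.76% and 3.14% on day 0. Myl4 made up 33.7% and 33.3% of the essential light chains, and 0.472% and 0.112% on day 0. Troponin T was divided among Tnnt1 (39.4% and 40.3%), Tnnt2 (31.0% and 28.3%) and Tnnt3 (29.7% and 31.3%) on day 3, where Tnnt3 had made up 93.5% and 98.1% on day 0. Tnni1 made up 20% and 19.6% of troponin I with Tnni2, and Tnnc1 18.2% and 17.3% of troponin C with Tnnc2. The regulatory light chain was Mylpf in at least 98.9% of UMIs in all 6 libraries. Outside the regulatory light chain, the shares of the isoforms named here lay closer between the day 3 libraries than to either day 0 library.

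Within day 3 the contractile genes were concentrated in the cells with the most Myog. Myog is 1 of the 5 genes that define the class, and deeper cells have more UMIs of every gene, so the bins describe these cells and were not tested. Cells were divided by their Myog UMIs into those with 0 (249 and 170 cells), 1 to 4 (104 and 86), 5 to 19 (105 and 78) and at least 20 (217 and 142), without fibre-rich barcodes. From the first bin to the last, Myh3 went from 1.60 to 154 CPM at ZT4 and from 2.34 to 217 at ZT16. Actc1 went from 1.26 to 265 and from 0.360 to 363, and Mybph from 0.228 to 67.3 and from 0.180 to 80.3. These 3 genes were nearly absent from the cells with no Myog UMI.

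Other genes also had UMIs in the cells with no Myog UMI. Tnnt2 went from 15.0 to 498 CPM at ZT4 and from 19.3 to 470 at ZT16, and Tnnt1 from 78.0 to 497 and from 129 to 519. Acta1 went from 29.7 to 1079 and from 28.4 to 961 CPM, and Mylpf from 57.4 to 1332 and from 95 to 1268. In the first bin Acta1 lay below the highest other class of its library, which held 49.2 and 37.1 CPM, and Mylpf was less than 3 times as high as that class (39.0 and 46.7 CPM). Ttn went from 306 to 878 and from 462 to 1295, and Des from 613 to 929 and from 649 to 920. The ratio of last to first bin was thus larger for Actc1, Myh3 and Mybph than for these, and was smallest for Des. Mybpc1, slow myosin-binding protein C, ran the other way, from 8.57 to 3.37 CPM and from 19.6 to 1.98. Ckm, Mb, Tcap and Pvalb stayed low in every bin of both libraries, at most 75.1 CPM, the value of Ckm at 5 to 19 Myog UMIs at ZT16.

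On day 0 only 5 and 17 cells had at least 20 Myog UMIs, and they combined the genes differently. Actc1 stood at 1798 and 1131 CPM in them and Acta1 at 1535 and 3499, both above the corresponding bins of day 3. The Acta1 values are to be read against 3281 and 3298 CPM in the highest other class of the day 0 libraries, so they were below it at ZT4 and close to it at ZT16, while for Actc1 that class held 31.8 and 64.4 CPM. Myh3 stood at 10.5 and 3.40 CPM, on 1 UMI each, and Tnnt2 at 42.1 and 51.0. Per UMI of Actc1 there were 0.00585 (0.000147 to 0.0330) and 0.00300 (7.58e-05 to 0.0168) UMIs of Myh3 on day 0, and 0.582 (0.547 to 0.620) and 0.599 (0.562 to 0.638) on day 3. For Tnnt2 the ratios were 0.0234 and 0.0450 on day 0 and 1.88 and 1.30 on day 3. The counting intervals of the Myh3 ratios do not overlap between days. The cells are few and come from 1 library each, and these 5 and 17 cells were singled out after their values were seen.

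**Figure D4:**
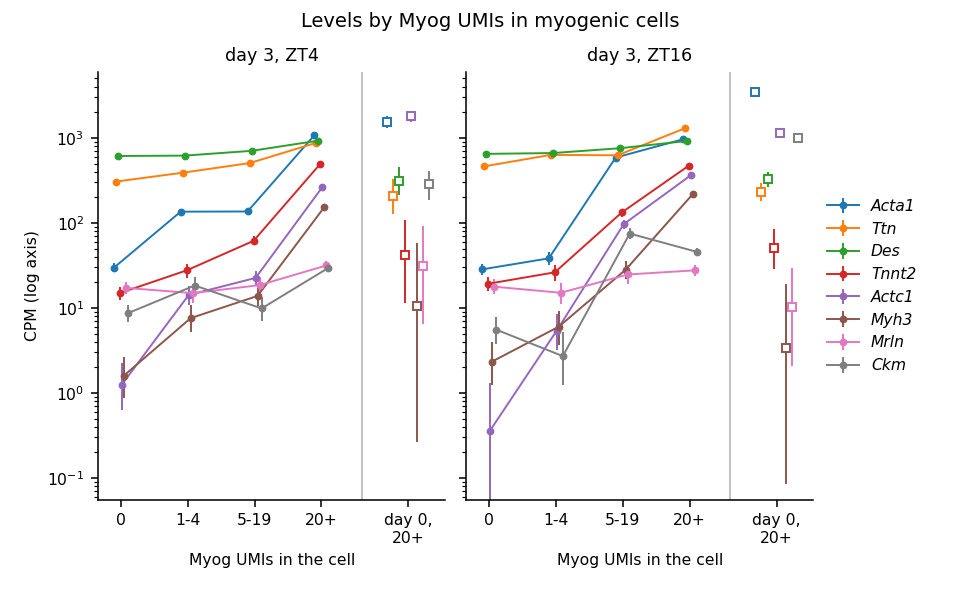
CPM (log axis) of 8 genes in myogenic cells of day 3, by the number of Myog UMIs in the cell, at ZT4 (left) and ZT16 (right), with 95% counting intervals. Open squares give the day 0 cells with at least 20 Myog UMIs at the same collection time. Actc1 and Myh3 climb most steeply, Des and Mrln are nearly flat, and the day 0 squares have high Actc1 and low Myh3.

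Counts of related genes outside the 48 are to be read against the shares of all genes, 16.9% higher and 30% lower at ZT4 and 16% and 25.3% at ZT16. Of these, 31 other sarcomere genes were compared in myogenic cells at ZT4, of which 10 were at least 2-fold higher on day 3 and 13 lower, and at ZT16 7 of 30 were higher and 13 lower. The most abundant went both ways. Pdlim7, a Z-disc adaptor, stood at 54.5 CPM on day 0 and 154 on day 3 at ZT4, Klhl41, which stabilises nebulin, at 16.1 and 43.7, and Fhl1, a muscle LIM protein, at 112 and 16.7. Of 23 other genes of the triad and the synapse, 7 were higher and 7 lower at ZT4, and 7 higher and 5 lower at ZT16. Among them Chrna1, the alpha subunit of the acetylcholine receptor, stood at 144 and 497 CPM, Bin1, which shapes T-tubules, at 97.0 and 388, and Cacng1, a subunit of the voltage sensor, at 17.3 and 80.8. Of 14 regulators of the lineage, 5 and 6 were higher and 4 and 4 lower, and of 9 metabolic genes 2 and 0 were higher and 6 and 6 lower, where Eno3, muscle enolase, stood at 337 and 864 CPM at ZT4 and Pgam2, muscle phosphoglycerate mutase, at 266 and 18.9.

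Between collection times on day 0, 42 of the 48 genes were compared in myogenic cells. At ZT16, 10 were at least 2-fold higher than at ZT4, where 3.93% of all 12034 genes were, and 3 were lower, where 2.34% of all genes were. The higher genes were Actc1, Tnni1, Myl1, Mylpf, Tnni2, Tnnc2, Acta1, Tpm1, Tcap and Ldb3, and the lower were Myl2, Ankrd1 and Mrln. Without the barcodes that met both rules, 69 at ZT16 and 11 at ZT4, 5 of 40 were higher (3.58% of all genes) and 2 lower (2.24% of all genes). Those 5 were Actc1, Myl3, Tnni1, Tcap and Ldb3, and the 2 were Ankrd1 and Mrln.

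Of the higher genes, Actc1 and Tcap had the same direction in other classes as well. Acta1 was higher at ZT16 in stromal barcodes (1350 and 1522 CPM) but lower in Ptprc-bearing (1526 and 1431) and fibre-rich barcodes (58580 and 56628). Actc1 stood at 41.7 and 87.7 CPM in myogenic cells without those barcodes, at 14.7 and 64.4 in Ptprc-bearing barcodes, at 31.8 and 64.4 in endothelial and at 13.1 and 39.3 in stromal barcodes. Tcap stood at 207 and 462 CPM, at 163 and 252, at 336 and 576 and at 139 and 276 in the same order. Both were higher at ZT16 in all 4 classes, and in fibre-rich barcodes too. The part of free RNA from fibres in these differences was not tested. Ldb3, which builds the Z-disc and stood at 20.5 and 61.6 CPM, or 12.2 and 34.2 without those barcodes, was not among the genes 3-fold above other cells on day 0.

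Ankrd1 and Mrln were among the 4 genes that stood above other cells on day 0, as was Tnnt1. Tnnt1 stood at 93.0 CPM at ZT4 and 46.8 at ZT16 (log2 ratio -0.99, 95% interval -1.16 to -0.82), just inside the 2-fold limit, Ankrd1 at 145 and 64.4 and Mrln at 143 and 61.8. After each cell was thinned to 3000 UMIs, at least 1 UMI was found in 22.4% and 13.8% of myogenic cells for Tnnt1, in 22.6% and 11.9% for Ankrd1 and in 31.8% and 13.4% for Mrln. For Des, the other of the 4 genes, the shares were 77.0% and 73.5%. Of 993 and 1186 cells, thinning left out 21 and 16, and the unthinned shares were 39.1% and 27.0% for Tnnt1, 34.9% and 21.2% for Ankrd1, 49.9% and 29.5% for Mrln and 92.8% and 92.7% for Des. In Ptprc-bearing barcodes of ZT4, thinned in the same way, the shares were 1.96%, 0.391%, 2.44% and 13.9% for Tnnt1, Ankrd1, Mrln and Des, with a median depth of 8236 UMIs against 6019 in these myogenic cells. Other classes too had less Mrln at ZT16, at 14 and 7.07 CPM in stromal, 7.77 and 5.18 in Ptprc-bearing and 13.2 and 9.57 in endothelial barcodes. In fibre-rich barcodes it stood at 189 and 159 CPM, and in mural barcodes it was higher at ZT16, at 14.1 and 15.7. Ankrd1 was lower at ZT16 in Ptprc-bearing (4.99 and 0.884 CPM), stromal (1.30 and 1.03) and fibre-rich barcodes (39.3 and 11.0). It was higher in endothelial (0.351 and 2.25) and mural barcodes (1.01 and 2.20).

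**Figure D5:**
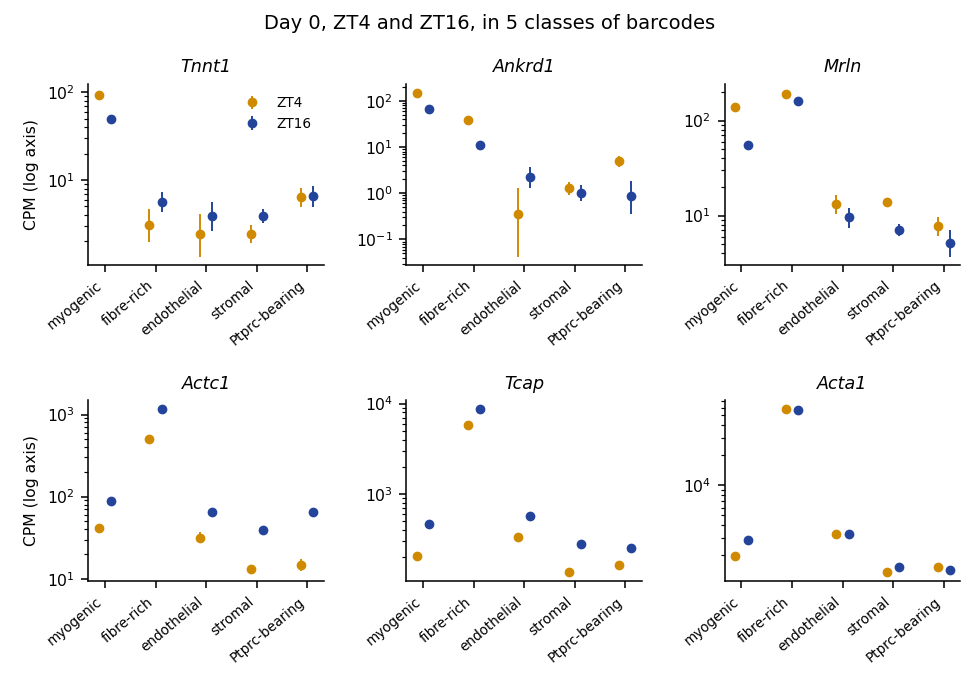
CPM (log axis) of 6 genes in the uninjured muscle at ZT4 and ZT16 in 5 classes of barcodes, with 95% counting intervals. In myogenic cells that are not fibre-rich Tnnt1, Ankrd1 and Mrln are lower at ZT16, while Actc1 and Tcap are higher at ZT16 in all 5 classes.

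On day 3, 43 genes were compared between collection times in myogenic cells. At ZT16, 4 were at least 2-fold higher, where 2.5% of all 12358 genes were, and none lower, where 0.421% of all genes were. The 4 were Myh8, Actn2, Pvalb and Mb, at 0.663 and 2.43, 1.03 and 2.21, 0.773 and 2.27, and 3.06 and 7.45 CPM, all with few UMIs. Without the barcodes that met both rules 4 were again higher (2.48% of all genes). The log2 ratio of Tnnt1 was 0.20, of Ankrd1 0.26 and of Mrln -0.02 on this day. The median over the members was 0.39 and over all genes 0.11.

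In fibre-rich barcodes most of the genes compared lay within 2-fold of day 0. Without the 5 genes of the rule, whose levels the choice of barcodes bears on, that held for 27 of 35 genes at ZT4 and 27 of 37 at ZT16 on day 1, and for 30 of 36 and 25 of 38 on day 3. Of all genes compared on day 1, 13.4% and 11% were at least 2-fold higher and 15.2% and 15% lower. On day 3, 7.94% and 10.1% of all genes were higher and 13.2% and 14.4% lower. Most genes of any kind thus lay within 2-fold, and this was not particular to the members. The 48 genes made up 26.7% to 30.3% of UMIs in each library, which the rule in part fixes. Of the 8 fast isoforms outside the rule, 8 were within 2-fold of day 0 on day 1 at ZT4 and on day 3 at ZT4, and 7 at ZT16 on both days, with Myh2 as the exception. At ZT16 Myh2 stood at 67.6 CPM on day 0 and was lower on day 1 (31.0, 25 UMIs) but higher on day 3 (226, 96 UMIs). Myh4 and Myh1 together made up most heavy chain UMIs, with Myh4 at 50.8%, 48.9%, 56.7%, 60.7%, 37.4% and 47.3% over the 6 libraries. Myh3 had no UMI in 5 of the 6 libraries and 2 in the day 3 ZT16 library. The median UMI count of these barcodes on day 1 and day 3 was less than the day 0 value by a factor of more than 3, which bears on every comparison between days.

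On day 1 Ankrd1, Flnc and Mybph were at least 2-fold higher in both collections, though the share of members that were higher was below that of all genes. The counts that follow include the 5 genes of the rule, all of them within 2-fold. At ZT4, 4 of 40 genes compared were at least 2-fold higher than on day 0 (13.4% of all 7229 genes were) and 4 lower (15.2% of all). At ZT16, 4 of 42 were higher (11% of all) and 6 lower (15% of all). Ankrd1 stood at 39.3 and 11.0 CPM on day 0, at 1281 and 828 on day 1 and at 48.4 and 386 on day 3. The day 1 levels lay above all 4 others, with log2 ratios of 5.02 (4.83 to 5.23) and 6.23 (5.95 to 6.53). Its UMIs on day 1 were spread over 144 of 314 and 143 of 478 fibre-rich barcodes. On day 0 at ZT4, 210 of its 292 UMIs lay in 1 barcode, and without the highest barcode of each library the ZT4 log2 ratio was 6.73. Endothelial barcodes of day 1 held Ankrd1 too, at 191 and 62.3 CPM.

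Flnc, an actin crosslinker that repairs Z-discs, stood at 11.6, 13.9, 156, 105, 17.1 and 65.9 CPM in fibre-rich barcodes, with log2 ratios of day 1 over day 0 of 3.75 and 2.92. Mybph stood at 30.4, 33.3, 161, 154, 74.0 and 96.4 CPM, with log2 ratios of 2.41 and 2.21, and its day 1 UMIs lay in 54 and 81 barcodes. With the threshold for a fibre-rich barcode at 20% these 2 ratios of Mybph were 0.96 and 0.74. Of 28 other sarcomere genes compared at ZT4, 10 were at least 2-fold higher and none lower (13.4% and 15.2% of all genes), and of 29 at ZT16, 8 were higher and 3 lower (11% and 15% of all genes). Among these Csrp3, a muscle LIM protein of the Z-disc named after its values were seen, stood at 132, 386, 4151, 4120, 868 and 3418 CPM over the 6 libraries. The part of immune RNA in these barcodes was not tested.

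The genes that were lower on day 1 in both collections were Actc1 and Mrln. Actc1 stood at 501, 1163, 248, 202, 476 and 188 CPM, with log2 ratios of day 1 over day 0 of -1.01 (-1.27 to -0.77) and -2.52 (-2.76 to -2.30). Mrln stood at 189, 159, 69.3, 31.0, 128 and 125 CPM, with log2 ratios of -1.43 and -2.33. For Mrln both day 1 libraries lay below all others. Acta1 stood at 58580, 56628, 53297, 52948, 60881 and 59621 CPM and Ckm at 25621, 20957, 20316, 18862, 21043 and 18455, both among the genes that chose these barcodes.

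On day 3 the developmental Myl4 and Tnnt2 and the slow Tnnt1 stood higher in fibre-rich barcodes than on day 0, while Myh3 had 0 and 2 UMIs, Myh8 had none, and Actc1 stood at 476 and 188 CPM against 501 and 1163. At ZT4, 5 of 41 genes compared were at least 2-fold higher than on day 0 (7.94% of all 7099 genes) and 1 lower (13.2% of all). At ZT16, 11 of 43 were higher (10.1% of all 8070 genes) and 2 lower (14.4% of all). Myl4 stood at 3.90, 3.90, 6.93, 6.20, 131 and 63.5 CPM and Tnnt2 at 0.135, 1.02, 0, 2.48, 51.3 and 49.4. Tnnt1 stood at 3.10, 5.67, 0, 6.20, 28.5 and 42.3 CPM. In each, both day 3 libraries lay above the other 4, on 46 and 27, 18 and 21, and 10 and 18 UMIs. Myogenic cells of day 3 held Myl4 at 70.7 and 97.6 CPM, Tnnt2 at 203 and 208 and Tnnt1 at 258 and 297, and the part of free RNA from them was not tested. Des stood at 2307, 1550, 3796, 2820, 5148 and 4269 CPM, with log2 ratios of day 3 over day 0 of 1.16 and 1.46, and was higher after injury in every library.

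Between collection times, 4 of 42 genes were at least 2-fold higher at ZT16 than at ZT4 in fibre-rich barcodes of day 0 (1.87% of all 9344 genes) and 2 lower (2.01%). They were Actc1 (501 and 1163 CPM, log2 ratio 1.21), Myl3 (112 and 331), Tnnc1 (0.269 and 4.09), Myh2 (27.6 and 67.6), and, lower, Ankrd1 (39.3 and 11.0) and Atp2a1 (1664 and 801, log2 ratio -1.05). Of the 44 UMIs of Tnnc1 at ZT16, 33 lay in 1 barcode, and without the highest barcode of each library the log2 ratio of Ankrd1 was -0.52 instead of -1.84. Myh2, the heavy chain of type 2A fibres, and Myl3 were thus both higher in the ZT16 library, and whether the muscles differed in their mix of fibres was not tested. On day 1, none of 36 was higher (2.85% of all genes) and 1, Mrln, was lower (2.59%). On day 3, 6 of 38 were higher (2.67%) and 2 lower (2.72%), on 231 and 244 barcodes.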

How the data were processed

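The authors deposited a filtered matrix of UMI counts for each of the 6 libraries, made with Cell Ranger from 10x 3′ libraries against mm10. The version is 6.1.2 per the file headers and 1.0.0 per the submitters' processing notes. Library totals were 72747703 to 132221721 UMIs. Barcodes were dropped below 200 genes, below 500 UMIs or above 10% mitochondrial UMIs, and no doublet caller was used beyond an alternative. Between 21 and 65 barcodes were shared by any 2 libraries.

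UMIs were summed by class and library with Python 3.11.15, pandas 2.3.3, numpy 2.4.6 and scipy 1.17.1. Ratios used a pseudocount of 0.5 UMIs and genes with at least 30 UMIs in both libraries together, and a 2-fold limit was used in place of a test. Ratios were computed only between classes of at least 50 cells. Intervals are exact Poisson for levels, conditional binomial for ratios and Clopper-Pearson for shares. The procedure was run on simulated Poisson counts, the model that the intervals assume. That run checks the arithmetic and does not bear on spread between cells or libraries. Endothelial and stromal classes were taken from their marker genes, and Ptprc-bearing barcodes had at least 2 UMIs of Ptprc. Values were given for up to 6 members of each group with the most UMIs in day 3 myogenic cells or day 0 fibre-rich barcodes, for all heavy chains, and for members that differed 2-fold between collection times. The members and lists were chosen with earlier results of these data known. Gene coordinates are GENCODE vM21.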

Additional observations from a re-analysis of the deposited data

Results flagged for a closer look

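Among genes whose ratio of ZT16 to ZT4 ran in opposite directions on 2 days, 5 were flagged. The list is not complete, as Tnnt1 in myogenic cells stood at 93.0 and 46.8 CPM on day 0 and at 258 and 297 on day 3. The share of all genes with such a change of direction is not given. With 1 library per group the difference between days was not tested. In myogenic cells the log2 ratio of Ankrd1 was -1.17 on day 0 and 0.26 on day 3. In fibre-rich barcodes that of Actc1 was 1.21 on day 0 and -1.33 on day 3. For Ankrd1 there it was -1.84 on day 0, -0.63 on day 1 and 2.96 on day 3, and the day 0 value was -0.52 without the highest barcode of each library. Between day 1 and day 3 the values in fibre-rich barcodes were -0.46 and 1.08 for Myh4, -0.50 and 1.24 for Ttn, and -0.57 and 1.86 for Flnc. The day 3 ratios in fibre-rich barcodes rest on 231 and 244 barcodes.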

How the results depend on the processing

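No paired analysis was possible because each group is 1 library and the labels carry no replicate that pairs libraries. For the same reason no replicate could be left out. Ratios of members that were at least 2-fold in the main analysis gave 1698 values under the alternatives, of which 1694 kept their direction and 1597 also stayed past 2-fold. The totals include 144 values with a minimum of 1 UMI and 120 with a minimum of 100 UMIs. A minimum alters which genes are compared and not their ratios, so those values could not change and the totals overstate how far the ratios were tried. Ratios within 2-fold are not in these counts and could also change sign, as did Tpm1 at ZT4 (-0.36 to 0.26) and Actc1 at ZT16 (-0.37 to 0.80) in myogenic cells, day 3 over day 0, without barcodes that met both rules. The 4 reversed values of the larger ratios were in fibre-rich barcodes: Tpm3 for day 3 over day 0 at ZT4 (-0.81 with a 5% threshold), Myl2 at ZT16 (-0.39 thinned to 1000 UMIs, -2.21 without its highest barcode) and Tnnc1 for ZT16 over ZT4 on day 0 (-1.91 with a 5% threshold). The cause was not tested. Dropping cycling cells and dropping the highest barcode of each gene were chosen after seeing the data.

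The counts for day 3 over day 0 in myogenic cells stayed within 1.5 times under every alternative run. Counts of genes at least 2-fold higher or lower at ZT16 in myogenic cells of day 0, 10 and 3, were 5 higher without barcodes that met both rules, 5 with a threshold of 5 UMIs, 17 thinned and 20 with free RNA subtracted, and 5 lower without called doublets and 5 with free RNA subtracted. On day 3, 4 and 0 became 2 higher thinned, 1 with a minimum of 100 UMIs and 2 without the highest barcode, and 2 lower with a minimum of 1 UMI.

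In fibre-rich barcodes a 20% threshold gave 1 higher and 2 lower for day 1 at ZT4, 1 higher at ZT16, 1 higher and 0 lower for day 3 at ZT4, 1 lower at ZT16, and between times 2 higher and 1 lower on day 0 and 1 lower on day 3. A 5% threshold gave 9 higher and 2 lower for day 3 at ZT4, 1 lower at ZT16, and between times 5 lower on day 0 and 2 higher on day 1. Thinning gave 1 lower for day 1 at ZT4, 3 higher for day 3 at ZT4, and between times 1, 0 and 1 lower on days 0, 1 and 3. A minimum of 100 UMIs gave 2 and 7 higher for day 3 at ZT4 and ZT16, and between times 0 and 1 lower on days 1 and 3. A minimum of 1 UMI gave 7 higher for day 1 at ZT4, 9 for day 3 at ZT4, and between times 8, 5 and 10 higher on days 0, 1 and 3 and 3 lower on day 1. Without the highest barcode there were 3 higher for day 3 at ZT4 and, between times, 1 lower on day 0 and 1 on day 3, and with the median of all genes taken off 1 lower on day 3. Fibre-rich barcodes after injury are few and shallow, which limits these counts.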
